A study of Homo sapiens with 4 samples.

Results

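The CEACAM genes encode carcinoembryonic antigen-related cell adhesion molecules, a family of immunoglobulin-like proteins on the cell surface. The 8 genes described here, CEACAM1, CEACAM3, CEACAM4, CEACAM5, CEACAM6, CEACAM7, CEACAM8 and CEACAM19, were taken by symbol from a table of 26255 genes. They were chosen by their measured values in these same libraries: CEACAM5 and CEACAM6 were far higher in tumors than in cultures, and CEACAM1 and CEACAM6 were lower in a culture with fibroblasts. All levels below are therefore a description with no test. RNA came from A549, an established human lung adenocarcinoma line, in 4 libraries with 1 library per group. The solid and acinar tumor libraries hold cells cut by laser microdissection from areas of xenografts that A549 cells formed in mice. An acinar area has gland-like structures and a solid area grows as sheets. The single and mix culture libraries hold GFP-labelled A549 cells sorted from 3D tumor colonies. Cancer-associated fibroblasts (CAFs), the fibroblasts of a tumor's stroma, were absent from the single culture and present in the mix culture, as read from the titles. The sources used here do not give the mouse strain, the time of growth, the source of the CAFs or whether both tumor areas came from 1 animal. None of the 4 groups has a replicate, so every difference is between libraries.

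CEACAM proteins bind each other between neighbouring cells, in like and unlike pairs. CEACAM5 is the carcinoembryonic antigen measured in blood as a marker of adenocarcinomas, and CEACAM5 and CEACAM6 are held in the membrane by a glycosylphosphatidylinositol (GPI) lipid anchor. CEACAM1 spans the membrane and can carry inhibitory tyrosine motifs in its tail. CEACAM3, CEACAM4 and CEACAM8 are proteins of granulocytes, CEACAM7 is best known from colon epithelium, and CEACAM19 is less studied.

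Values are scaled counts, the deposited gene values divided by 8.94 in every library, which puts the mean library total on the scale of CPM. Estimated depth was 6630000 to 7270000 fragments in the tumors and 10970000 to 12180000 in the cultures. Intervals are 95% intervals of counting error only, exact Poisson for a level and exact conditional binomial (Clopper-Pearson) for a fold. Amplified copies of 1 molecule are not marked in such libraries, so the true error is larger. The levels of 6 epithelial markers were read beside the label of an epithelial line. All 6 were above 0 in every library, a low bar that 1 fragment would meet. Their summed level was 10238 and 11993 scaled counts in the solid and acinar tumors and 4715 and 5251 in the single and mix cultures. KRT8 was the highest of them in every library, and EPCAM the lowest, at 2.31 and 2.09 in the single and mix cultures. Of 13 neutrophil and myeloid markers, MPO, FCGR3B, S100A12 and CXCR2 were at 0 in all libraries, and 8 stayed under 1 scaled count in each. The summed level of that list was 7.41 and 8.68 scaled counts in the tumors and 21.5 and 20.7 in the cultures, where FPR1 made up 17.2 and 18.4. The 10 fibroblast markers summed to 54.1 and 88.8 scaled counts in the solid and acinar tumors and to 23.1 and 33.7 in the single and mix cultures. POSTN was at 0 in all, and 4 of the 10 were under 1 scaled count in each library. LUM made up 19.6 and 55.4 of the tumor sums and was at 0 and 0.0805 in the single and mix cultures. COL1A1 was at 32.3 and 30.7 in the solid and acinar tumors and at 19.3 and 29.5 in the single and mix cultures. Only the human build hg19 is listed, so fragments from mouse cells of the host could be counted under human symbols in the tumors. These lists do not measure such cells, and their part in the tumor values was not tested.

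CEACAM6 had the highest level of the family per kilobase of exon in every library. The solid tumor was at 8586 scaled counts (interval 8518 to 8654), the acinar tumor at 11712 (11629 to 11796), the single culture at 166 (159 to 174) and the mix culture at 28.7 (25.8 to 31.9). Both tumors stood far above both cultures, and no pair of intervals overlapped. For CEACAM5 the solid tumor was at 4670 scaled counts (4620 to 4721), the acinar tumor at 4597 (4544 to 4649), the single culture at 1.51 (0.880 to 2.42) and the mix culture at 0.242 (0.0498 to 0.706). The tumor levels of CEACAM5 lay close together, while the cultures rested on 17 and 3 estimated fragments.

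**Figure D1:**
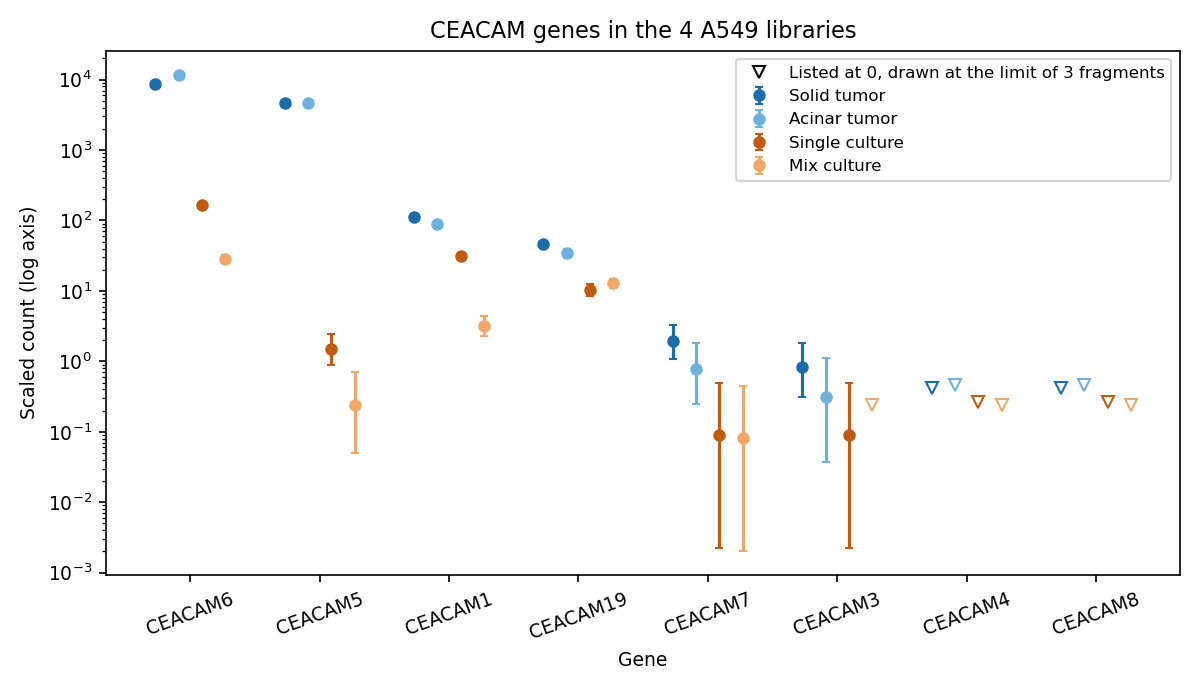
Scaled counts (log axis) of the 8 CEACAM genes, with 1 point per library and bars for 95% Poisson intervals. Triangles mark genes listed at 0, drawn at the limit of 3 fragments. CEACAM5 and CEACAM6 are at 4597 to 11712 in the tumors and at 0.242 to 166 in the cultures.

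CEACAM1 followed the order solid tumor, acinar tumor, single culture, mix culture. Its levels in this order were 112 (104 to 120), 89.0 (81.9 to 96.6), 31.4 (28.2 to 34.8) and 3.22 scaled counts (2.30 to 4.39). The mix culture stood lowest, on 40 fragments. CEACAM19 was at 46.1 (41.3 to 51.4) and 34.1 scaled counts (29.8 to 38.9) in solid and acinar tumor, and at 10.4 (8.60 to 12.5) and 12.8 (10.9 to 15.0) in single and mix culture. The tumors were again above the cultures, but the cultures' intervals overlapped, and the mix culture was the higher of them.

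The other 4 members had at most 14 fragments in any library. CEACAM7 was at 1.96 (14 fragments) and 0.775 scaled counts (5 fragments) in solid and acinar tumor, and at 0.0889 and 0.0805 in single and mix culture (1 fragment each). CEACAM3 was at 0.839 (6 fragments) and 0.310 scaled counts (2 fragments) in solid and acinar tumor, at 0.0889 (1 fragment) in the single culture and at 0 in the mix. For both genes the solid tumor had the most fragments, and the intervals of the 2 tumors overlapped. CEACAM4 and CEACAM8, which granulocytes express, were listed at 0 in all libraries. As a one-sided limit a count of 0 allows up to 3 fragments, which is 0.420 and 0.465 scaled counts for solid and acinar tumor and 0.267 and 0.242 for single and mix culture. Other genes of the wider family were near 0 too: of 16 further CEACAM genes and pregnancy-specific glycoprotein (PSG) genes, 14 were at 0 in all libraries. The remaining ones were CEACAM16, with 1 to 4 fragments per library, and CEACAM20, with 1 fragment in the solid tumor, 1 in the single culture and 0 elsewhere.

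Levels of different genes were compared per kilobase of exon, with lengths from GENCODE v29 for 23605 genes. On this scale CEACAM6 was at 3180 scaled counts per kilobase in the solid tumor and 4338 in the acinar tumor, rank 6 and rank 4 of all these genes. CEACAM5 was at 1607 and 1581 per kilobase, rank 18 and rank 19. In the single culture CEACAM6 was at rank 949 with 61.6 per kilobase and CEACAM5 at rank 12113 with 0.520. In the mix culture they were at ranks 5268 and 14007. CEACAM1, at 30.2 per kilobase in the solid tumor, was rank 2284 there and rank 11243 in the mix culture. CEACAM6 alone made up 0.845% of all fragments in the solid tumor and 1.14% in the acinar tumor, against 0.0171% and 0.00293% in the single and mix cultures.

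**Figure D2:**
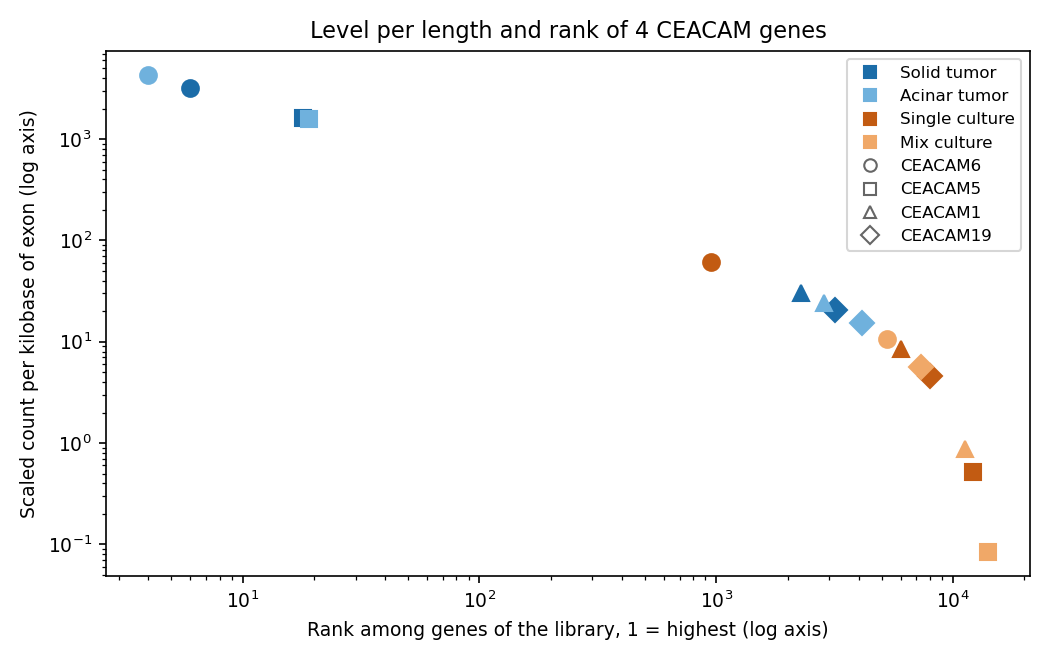
Scaled counts per kilobase of exon (vertical, log axis) against rank among the genes of the same library (horizontal, log axis) for 4 CEACAM genes, 1 symbol shape per gene and 1 colour per library. CEACAM6 is at ranks 4 and 6 in the tumors and at ranks 949 and 5268 in the cultures.

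The balance between CEACAM5 and CEACAM6 also differed between the settings. CEACAM5 fragments were 35.2% of the sum of CEACAM5 and CEACAM6 fragments in the solid tumor (exact binomial interval 34.9 to 35.5) and 28.2% in the acinar tumor (27.9 to 28.5). The single culture had 0.900% (0.525 to 1.44, 17 of 1889 fragments) and the mix culture 0.833% (0.172 to 2.42, 3 of 360). The cultures' intervals overlapped, and both lay far below those of the tumors.

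Stretches of nearly the same sequence make the assignment of fragments between members uncertain. Among distinct windows of 50 bases in GENCODE v29 protein-coding transcripts, 4.03% of those of CEACAM6, 3.07% of CEACAM5, 2.75% of CEACAM1 and 5.20% of CEACAM3 also occurred in another member. For windows of 25 bases the shares were 13.3%, 14.9%, 9.44% and 17.5%. CEACAM7 shared no window of 50 bases and 3.19% of windows of 25 bases, and CEACAM19 shared none of either length. CEACAM3 shared 7.07% of its windows of 25 bases with CEACAM5, 4.81% with CEACAM6 and 8.59% with CEACAM1. The sources used here give no read length. How much the low values of CEACAM3 in both tumors draw on fragments of CEACAM5, CEACAM6 or CEACAM1 was not tested. Nor was it tested how much the low values of CEACAM5 in the cultures draw on fragments of CEACAM6 or CEACAM1.

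**Figure D3:**
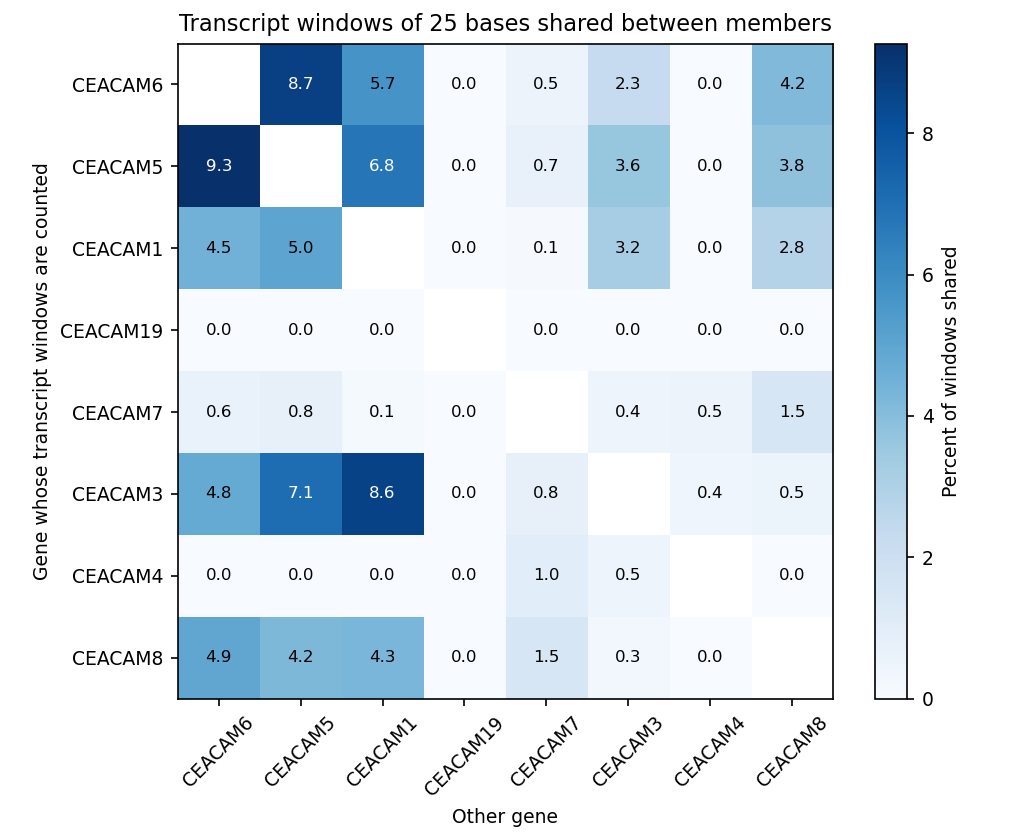
Percent of the distinct 25-base windows in each gene's transcripts (row) that also occur in transcripts of another member (column). CEACAM3, CEACAM5, CEACAM6, CEACAM1 and CEACAM8 share windows with one another, while the CEACAM19 row is 0.

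The sequences just before the transcription start are shown because CEACAM5 and CEACAM6 had the highest tumor levels and CEACAM7 and CEACAM3, close relatives next to them in the gene order on chromosome 19, were at 1.96 scaled counts or less in the same libraries. RefSeq promoter windows (GRCh38.p14) were found for 7 of the 8 members, all but CEACAM19. The 250 bases upstream are printed 5′ to 3′ on the strand of the gene. Capitals mark CACGTG, an E-box that the factors USF1 and USF2 are known to bind, and AATGAGAGGGGAGGGGA, the longest run shared by CEACAM5, CEACAM6 and CEACAM7.
CEACAM5, chr19:41708376-41708625, plus strand: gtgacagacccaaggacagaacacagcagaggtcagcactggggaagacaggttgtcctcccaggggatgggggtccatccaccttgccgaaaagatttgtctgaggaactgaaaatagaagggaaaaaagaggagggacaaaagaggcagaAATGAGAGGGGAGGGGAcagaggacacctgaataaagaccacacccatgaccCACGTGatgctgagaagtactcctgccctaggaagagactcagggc
CEACAM6, chr19:41755280-41755529, plus strand: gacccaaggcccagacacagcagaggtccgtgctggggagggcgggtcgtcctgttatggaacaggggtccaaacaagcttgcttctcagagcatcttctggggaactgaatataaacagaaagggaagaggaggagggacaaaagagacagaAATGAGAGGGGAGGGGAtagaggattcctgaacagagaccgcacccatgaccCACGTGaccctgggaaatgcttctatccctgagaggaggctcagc
CEACAM7, chr19:41688271-41688520, minus strand: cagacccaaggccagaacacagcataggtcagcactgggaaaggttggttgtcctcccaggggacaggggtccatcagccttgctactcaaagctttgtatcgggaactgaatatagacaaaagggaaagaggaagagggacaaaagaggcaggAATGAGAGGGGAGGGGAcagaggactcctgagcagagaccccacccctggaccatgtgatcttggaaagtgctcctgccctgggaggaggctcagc
CEACAM1, chr19:42528482-42528731, minus strand: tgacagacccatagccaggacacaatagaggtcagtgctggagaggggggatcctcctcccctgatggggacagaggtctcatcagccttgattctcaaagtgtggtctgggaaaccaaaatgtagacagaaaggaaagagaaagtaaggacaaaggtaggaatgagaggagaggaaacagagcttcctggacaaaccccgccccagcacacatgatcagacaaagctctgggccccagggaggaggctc
CEACAM3, chr19:41796337-41796586, plus strand: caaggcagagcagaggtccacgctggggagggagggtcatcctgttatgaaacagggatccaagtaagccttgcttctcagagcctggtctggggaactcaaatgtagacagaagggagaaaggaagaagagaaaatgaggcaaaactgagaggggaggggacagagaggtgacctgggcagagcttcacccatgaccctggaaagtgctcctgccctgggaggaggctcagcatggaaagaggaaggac

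The CACGTG started 46 bases before the transcription start in CEACAM5 and 45 bases before it in CEACAM6. It was in no other of the 7 windows, and 6.34% of all 35116 RefSeq windows of this length hold it (its reverse complement is the same word). The shared run of 17 bases was defined from the windows of CEACAM5, CEACAM6 and CEACAM7, so its presence in these was fixed in advance. It was in 3 of the 35116 windows, so in no other. The CEACAM3 window holds all of it but the leading AA. All words were searched on both strands. GGGCGG, the GC box of SP1, was found once each in CEACAM1, CEACAM6 and CEACAM8 (42.6% of all windows). CAGAC, a SMAD-binding word, was in 6 of the 7 windows, all but CEACAM4 (38.0% of all windows). TATAAA was in CEACAM6 only, 139 bases before the start (10.7% of all windows), and TGANTCA, the AP-1 word, was in none of the 7 (6.57% of all windows). The words do not overlap the shared run. CEACAM5 and CEACAM7 were identical at 82.4% of the 250 bases after global alignment, and CEACAM6 and CEACAM7 at 81.2%. CEACAM5 and CEACAM6 were identical at 77.6%, as were CEACAM3 and CEACAM6. The CEACAM5 window aligned to 35097 windows outside the family at a median of 56.0% and at most 66.0%. A match to a short word is a description of the letters and shows no binding. Whether the upstream sequences have a part in the levels was not tested.

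The first comparison sets the tumors against the cultures. A gene was counted as higher where the lower tumor value was at least 2-fold above the higher culture value on the log2(scaled count + 1) scale, which understates differences of low genes. CEACAM5 had the largest such gap toward the tumors of the 14561 genes tested, 10.84 on the log2 scale. CEACAM6 had the 25th largest, 5.68. CEACAM1 (1.48) and CEACAM19 (1.35) were also past 2-fold, at positions 731 and 863, and CEACAM7 (0.71) was not. In all, 4 of the 8 members were past 2-fold higher and 0 lower, 5 having passed the filter of 1 scaled count in at least one library. Over all genes tested 9.67% were past 2-fold higher and 8.22% lower. These values chose the members, so nothing is read from the counts.

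As plain ratios, CEACAM5 was 3042-fold higher in the acinar tumor than in the single culture (1900 to 5223). Against the mix culture, where it had 3 fragments, the acinar tumor was 19030-fold higher (6511 to 92286). CEACAM6 was 51.6-fold higher in the solid tumor than in the single culture (49.3 to 54.1) and 407-fold higher in the acinar tumor than in the mix culture (367 to 453). The ratio for CEACAM1 was 2.84 between the acinar tumor and the single culture (2.48 to 3.25), the nearest pair, and 34.8 between the solid tumor and the mix culture (25.3 to 49.1), the most distant pair. CEACAM19 differed by 2.66-fold (2.16 to 3.29) between its nearest tumor and culture, the acinar tumor and the mix culture. CEACAM7 was 22.0-fold higher in the solid tumor than in the single culture, on 14 against 1 fragment (3.35 to 931). The nearest pair for CEACAM7, the acinar tumor and the single culture, differed by 8.72-fold on 5 against 1 fragment, with an interval that included no difference (0.976 to 413). CEACAM3 had 6 fragments in the solid tumor and 0 in the mix culture, and the exact interval of that fold began at 2.05. Its nearest pair with fragments, the acinar tumor and the single culture (2 against 1), had an interval that included no difference (fold 3.49, 0.182 to 206). Tumors and cultures differ in growth in an animal, in possible RNA of mouse host cells, in microdissection against sorting and in depth. These cannot be told apart. In such bulk RNA, fewer cells expressing a gene and less RNA per cell cannot be told apart either. Of the 6 epithelial markers, 3 were past 2-fold higher in the tumors and 0 lower (9.67% and 8.22% over all genes). KRT19 was at 607 and 818 scaled counts in the solid and acinar tumors and at 33.4 and 15.1 in the single and mix cultures, EPCAM at 20.3 and 28.1 against 2.31 and 2.09, and KRT7 at 2232 and 3780 against 473 and 899. The gaps of KRT8 and KRT18 were under 2-fold, and CDH1 overlapped between the settings. The part of these markers in the result was not tested.

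**Figure D4:**
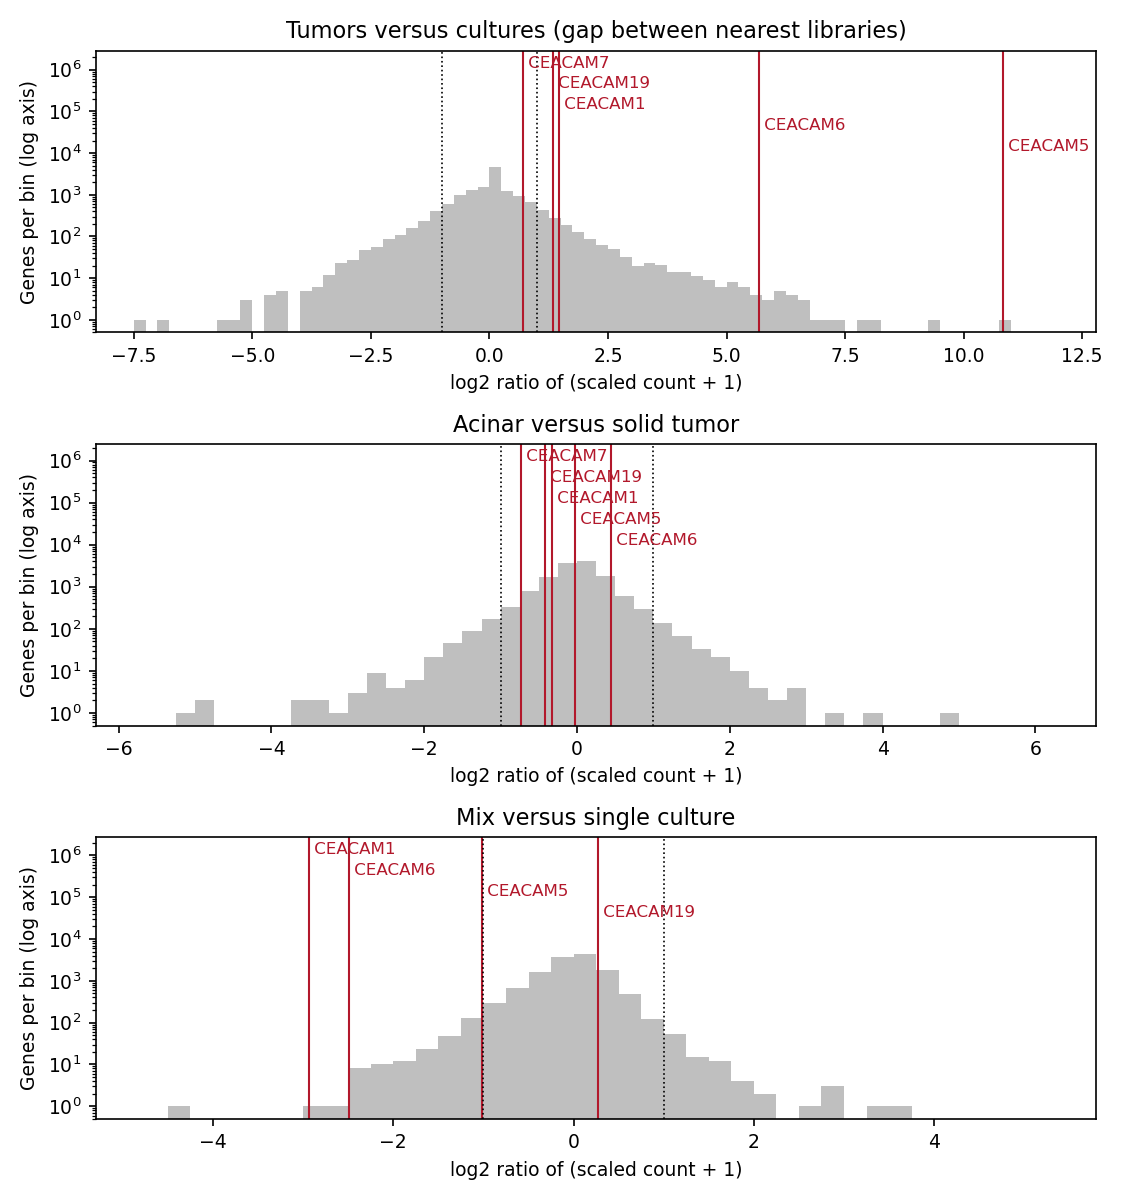
Histograms of log2 ratios of (scaled count + 1) over all genes tested in each comparison (number of genes on a log axis), with the CEACAM genes that passed the filter as red lines and 2-fold as dotted lines. CEACAM5 lies at 10.84 in tumors against cultures, no member is past 2-fold between the tumors, and CEACAM1 (-2.94) and CEACAM6 (-2.49) lie far to the left in the cultures.

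The second comparison, acinar against solid tumor, asks how the histological types differ, in a study whose title ties tumor histology to TGF-β signaling from CAFs. CEACAM1, CEACAM5, CEACAM6 and CEACAM19 differed by less than 2-fold here. By log2 ratio among 13979 genes, CEACAM6 was at position 1403 from the highest. From the lowest, CEACAM7 was at position 716, CEACAM19 at 1822, CEACAM1 at 2502 and CEACAM5 at 6451. CEACAM6 was 1.36-fold higher in the acinar tumor (1.35 to 1.38), and CEACAM5 was 1.02-fold lower, with an interval whose lower end (1.00021 to 1.03) is closer to equality than the shift between library scalings. CEACAM1 was 1.26-fold lower (1.13 to 1.40) and CEACAM19 1.35-fold lower (1.14 to 1.61). The interval for CEACAM7 included no difference (5 against 14 fragments, 2.53-fold lower, 0.860 to 8.96). On the log2(scaled count + 1) scale 0 of the 8 members were past 2-fold in either direction, 5 having passed the filter. Of the 13979 genes tested 1.98% were past 2-fold higher and 2.55% lower, so a count of 0 is near these shares. With a pseudocount of 0.1, 1 member, CEACAM7, was past 2-fold lower. Counting intervals leave out differences between tumors, animals and dissections, which 1 library per group cannot show.

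The third comparison, mix against single culture, sets colonies with CAFs against colonies without, as read from the titles. With 1 library per group, an effect of CAFs cannot be told apart from differences between cultures, sorts or library preparations. CEACAM1 had the second lowest log2 ratio of 13485 genes (-2.94) and CEACAM6 the fourth lowest (-2.49). CEACAM1 was 9.74-fold lower in the mix culture (7.01 to 13.9) and CEACAM6 5.79-fold lower (5.17 to 6.50). CEACAM5 was 6.26-fold lower on 3 against 17 fragments (1.81 to 33.3), and its log2 ratio of -1.02 lay just past 2-fold. CEACAM19 stood apart from these, at 1.23 times its level in the single culture with an interval that included no difference (0.964 to 1.58). Thus 3 of the 8 members were past 2-fold lower and 0 higher, 4 having passed the filter, where 1.74% of the genes tested were past 2-fold lower and 0.682% higher. Since CEACAM1 and CEACAM6 were chosen for this difference, nothing is read from the count. With a pseudocount of 5 or a filter of 5 scaled counts the number was 2, CEACAM1 and CEACAM6. Of the 6 epithelial markers 3 had higher and 3 lower values in the mix culture (median -0.02). KRT19 was past 2-fold, at 2.21-fold lower, and KRT7 was at 899 against 473 scaled counts. The fibroblast marker sum was 33.7 against 23.1, of which COL1A1 made up 29.5 and 19.3. Of the 3 fibroblast markers tested 2 were higher in the mix culture and 1, PDGFRA, was lower. The part of the epithelial and fibroblast markers in the result was not tested. The first comparison shares its libraries with the other ones, so the folds of a member are not independent of one another.

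Profiles over the 4 libraries were compared with those of 11945 genes that reached 5 scaled counts in any library, by Euclidean distance between log2(scaled count + 1) values centred on each gene's mean. Nearest to CEACAM6 were LCN2, encoding the iron-siderophore binding protein lipocalin-2 (distance 0.54), the cell surface mucin gene MUC16 (0.70), the tetraspanin gene TSPAN1 (1.08), and FXYD2 (1.35) and FXYD3 (1.67), which encode regulators of the sodium pump. LCN2 was at 447 and 485 scaled counts in the solid and acinar tumors and at 9.15 and 1.05 in the single and mix cultures. MUC16 was at 376 and 457 against 3.11 and 0.322. Like CEACAM6, LCN2, MUC16 and TSPAN1 were highest in the acinar tumor and lowest in the mix culture.

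The genes nearest to CEACAM5 were farther away. These distances grow with the size of a gene's differences, and CEACAM5 had the largest gap toward the tumors, so this was partly built in. They were the keratin gene KRT17 (1.69), TRIM29 (3.07), the microfibril gene MFAP5 (3.11), the cystatin gene CST1 (3.57) and the mesothelin gene MSLN (3.76). CEACAM6 was the ninth nearest gene to CEACAM5, at 4.35. Seen from CEACAM6, the same distance put CEACAM5 only at position 195, behind CEACAM1 at position 157. KRT17 was at 729 and 1771 scaled counts in the solid and acinar tumors and at 0.0889 and 0 in the single and mix cultures, so unlike CEACAM5 it differed between the tumors.

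The profile of CEACAM1 was nearest to the sterol transporter gene ABCG1 (0.64), the transcription factor gene CREB3L1 (1.11), TMEM256-PLSCR3 (1.12), the coronin gene CORO2A (1.13) and the potassium channel gene KCNK5 (1.15). ABCG1 was at 41.8 and 31.8 scaled counts in the solid and acinar tumors and at 10.1 and 1.53 in the single and mix cultures. TMEM256-PLSCR3 is a read-through of neighbouring genes, so its values are uncertain. CEACAM19 was nearest to RILP (0.09), ICAM3 (0.12), PON1 (0.12), FAM167A (0.14) and RPS21 (0.15). Among these 4 members the smallest distance was that between CEACAM1 and CEACAM19 (2.68), and the largest that between CEACAM5 and CEACAM19 (9.71). The smallest distance was still not a close likeness. CEACAM19 was at position 969 from CEACAM1, and CEACAM1 at position 10051 from CEACAM19, of the 11945 genes. Their log2 ratios of mix against single culture had opposite signs (-2.94 and 0.28). With 4 libraries these distances describe the libraries and carry no error.

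**Figure D5:**
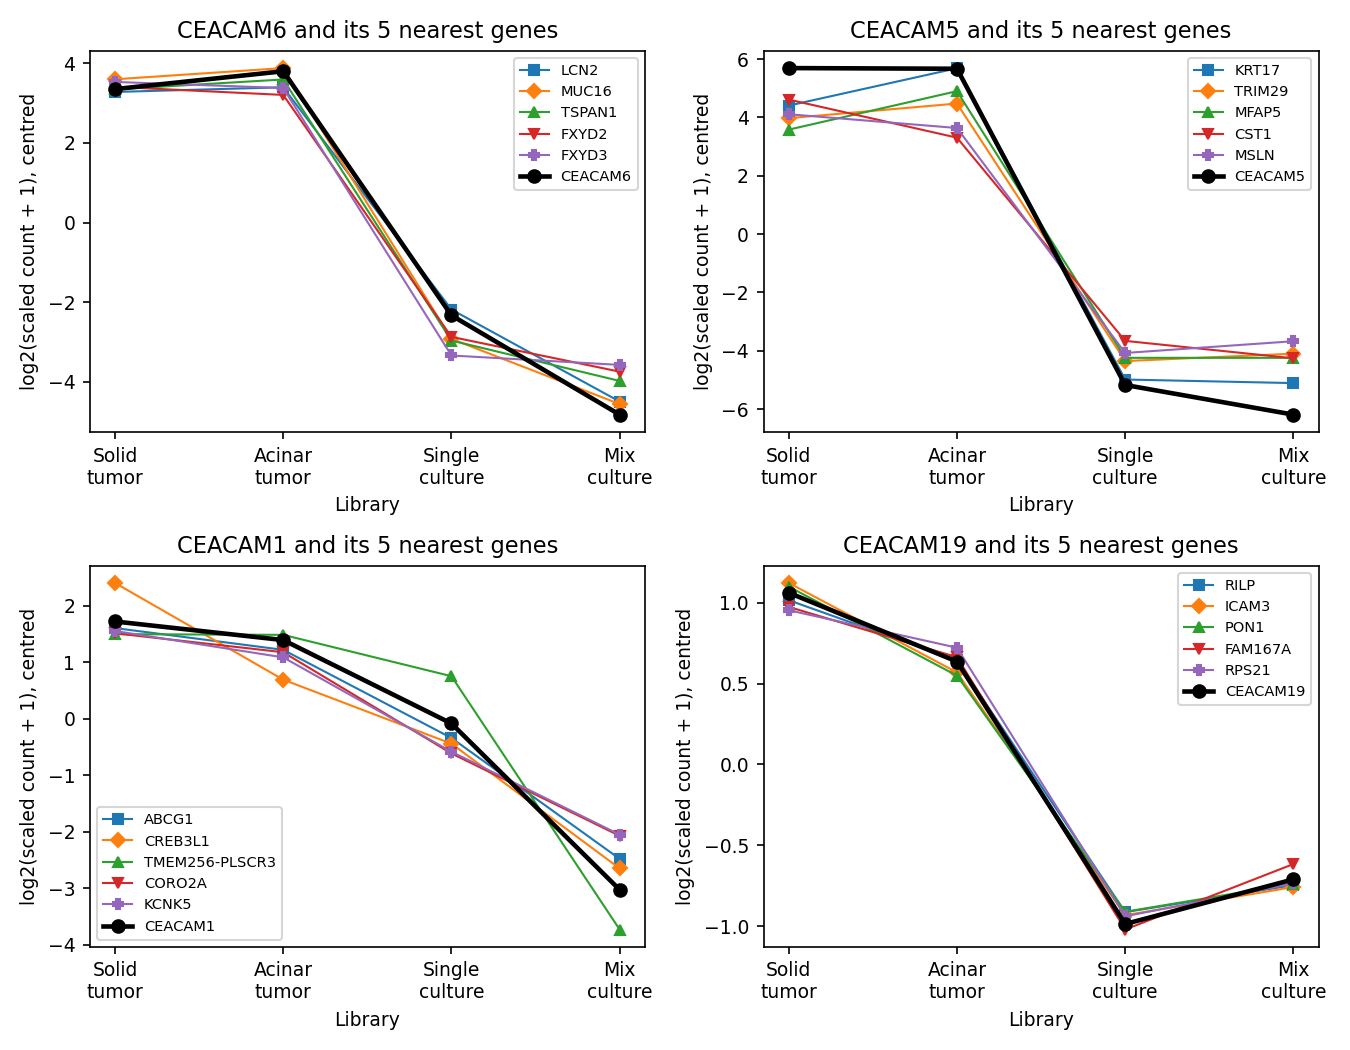
Centred log2(scaled count + 1) in the 4 libraries for CEACAM6, CEACAM5, CEACAM1 and CEACAM19 (thick black lines) and the 5 genes nearest to each (thin lines). The CEACAM6 panel shows close profiles at distances of 0.54 to 1.67, and the CEACAM5 panel wider ones at 1.69 to 3.76.

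In the RefSeq gene order, CEACAM4, CEACAM7, CEACAM5, CEACAM6 and CEACAM3 follow one another with no other protein-coding gene between them. CEACAM5 and CEACAM6, the highest members per length in the tumors, therefore lie between CEACAM7 (0.0805 to 1.96 scaled counts) and CEACAM3 (0 to 0.839). At the outer ends of this row, CEACAM21 and LYPD4 were at 0 in all libraries. CEACAM1 lies between the chemokine gene CXCL17, at 0.0805 to 1.26 scaled counts, and CEACAM8, at 0. Beyond CEACAM8, PSG3 was at 0 in all libraries. CEACAM19 lies between PVR, which encodes the poliovirus receptor, and CEACAM16. PVR was lower in the tumors than in the cultures, the opposite direction to CEACAM19. It was at 127 and 140 scaled counts in the solid and acinar tumors against 235 and 265 in the single and mix cultures. Between the cultures, PVR and CEACAM19 both had the higher value in the mix culture.

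Of 16 genes for signalling and binding partners of CEACAM1, 13 were tested, with 1 past 2-fold higher and 4 past 2-fold lower in the tumors against the cultures, where 9.67% and 8.22% of all genes were (median -0.09, 0.00 over all genes). The insulin receptor gene INSR was higher, at 35.8 and 32.7 scaled counts in the tumors against 9.15 and 10.9 in the cultures. Lower were the integrin genes ITGB3 (1.12 and 0.465 against 114 and 76.6) and ITGB1 (417 and 432 against 1673 and 1762), the growth factor receptor gene EGFR (20.3 and 15.3 against 134 and 151) and PTPN11 (75.5 and 71.2 against 194 and 208), which encodes the phosphatase SHP2. None was past 2-fold between the tumors (median -0.13, 0.01 over all genes) or between the cultures (0.10 and 0.01). Over all genes 1.98% were higher and 2.55% lower between the tumors, and 0.682% and 1.74% between the cultures, so these counts are near the shares.

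Factors named with CEACAM promoters in other work (USF1, USF2, SP1, SP3, IRF1, SOX9 and SMAD3) were all tested, and 0 of 7 were past 2-fold in any comparison. With at most 9.67% of all genes past 2-fold in 1 direction of a comparison, a count of 0 of 7 is near the shares over all genes. Their medians were 0.22 in tumors against cultures, 0.19 in acinar against solid and -0.06 in mix against single culture, with 0.00, 0.01 and 0.01 over all genes.

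Of 27 genes for synthesis and processing of the anchor, 2 were past 2-fold higher in the tumors, PIGL (32.0 and 30.7 against 7.11 and 8.05 scaled counts) and PGAP3 (61.4 and 58.9 against 26.5 and 21.3). Past 2-fold lower were PIGS (71.0 and 61.4 against 204 and 144) and GPLD1, the anchor-cleaving phospholipase gene (1.14 and 0.790 against 3.40 and 4.04). These counts are near the shares over all genes (9.67% higher, 8.22% lower). The median was 0.00, and 0 were past 2-fold between the tumors (median -0.03) or the cultures (median 0.02). The shares over all genes were 1.98% higher and 2.55% lower between the tumors, and 0.682% and 1.74% between the cultures.

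Among 25 other genes for GPI-anchored surface proteins, 17 were tested in tumors against cultures, and 5 were past 2-fold higher and 0 lower, where 9.67% and 8.22% of all genes were (median 0.50, 0.00 over all genes). MSLN was at 289 and 208 scaled counts in the solid and acinar tumors against 0 and 0.322 in the single and mix cultures. LYPD3 was at 28.4 and 50.9 against 0.889 and 0.725, EFNA1, an ephrin gene, at 467 and 346 against 36.9 and 49.7, the folate receptor gene FOLR1 at 6.99 and 8.68 against 0.0889 and 0.161, and the complement regulator gene CD55 at 547 and 688 against 116 and 141. Between the tumors 1 of 16 was past 2-fold, LY6E, which was 2.61-fold lower in the acinar tumor (median 0.06). Over all genes 1.98% were past 2-fold higher there and 2.55% lower. Between the cultures 0 of 13 were past 2-fold (median -0.18), where 0.682% of all genes were past 2-fold higher and 1.74% lower.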

How the data were processed

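Gene values were measured by RNA sequencing in 4 libraries of A549 cells, prepared by the TruSeq RNA protocol, per the labels' protocols. Cuffdiff 2.2.1, Bowtie2 2.2.3, TopHat2 2.0.13 and SAMtools 1.0, and the build hg19, are listed with no role in the submitters' processing notes. The sources used here do not give the annotation, read length or strand setting, so fragments of overlapping or antisense genes cannot be told apart. The authors deposited 1 table of signal values per gene and library, called raw signal in the file header. Of the nonzero values, 90.0% to 91.2% per library came to whole numbers within 0.05 when divided by the library's step, the value of 1 fragment (1.25, 1.39, 0.795 and 0.720 for solid, acinar, single and mix), so they behave as fragments divided by a size factor. Members' fragments were the values divided by this step. For the largest values, deposited with 6 digits, wholeness is not resolved. As not all values were whole, no count model was used.

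All libraries were divided by 8.94. Genes at 1 scaled count or more in at least one library compared were tested for 2-fold on log2(scaled count + 1). For tumors against cultures the nearest libraries were used. With 1 library per group there is no p-value. The members and gene lists were chosen with earlier results of these data known. All members are named whatever their values, along with up to 5 genes past 2-fold per list and comparison, the 5 genes nearest in profile to each member at 5 scaled counts or more, and the protein-coding gene on each side of a member. Promoter windows and gene order are from RefSeq (GRCh38.p14), a build other than that of the files, and were joined by symbol. The motifs were chosen with the sequences seen. The steps were tested on simulated data. Python 3.11.15, pandas 2.3.3, SciPy 1.17.1 and Biopython 1.88 were used. The alternatives were other pseudocounts, filters and library scalings.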

Additional observations from a re-analysis of the deposited data

How the results depend on the processing

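The 6 alternatives were pseudocounts of 0.1 and 5, no filter and a filter of 5 scaled counts, equal library totals and median-of-ratios scaling. With a pseudocount of 5 the genes past 2-fold in tumors against cultures fell from 1408 higher and 1197 lower to 864 and 774. Between acinar and solid tumor (277 higher, 357 lower) a pseudocount of 0.1 gave 478 and 692, a pseudocount of 5 gave 114 and 101, and a filter of 5 gave 203 lower. Between mix and single culture (92 higher, 234 lower) the same pseudocounts gave 192 and 522, then 33 and 73. Larger pseudocounts shrink ratios of low genes by construction. Members past 2-fold lower in the acinar tumor numbered 1 in place of 0 with a pseudocount of 0.1 (CEACAM7). Members past 2-fold higher in the tumors numbered 4 under all but that alternative, which gave 5. Of 81 log2 ratios of single members under the alternatives, 78 moved by less than their counting error. The others were CEACAM5 in tumors against cultures (9.47 with a pseudocount of 5), CEACAM6 in acinar against solid (0.43 with equal totals) and CEACAM1 in mix against single (-2.15 with a pseudocount of 5). No paired analysis was possible because each group has 1 library. Depth limits CEACAM3, CEACAM4, CEACAM7 and CEACAM8 in all libraries and CEACAM5 in the cultures.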
